A study of Pleurotus tuoliensis with 9 samples.

Results

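A set of 53 unigenes with no assigned function was expressed at a higher level in mycelia of the mushroom *Pleurotus tuoliensis* at 36 °C than at either lower temperature. A unigene here is a gene model of the authors' assembly, and it was taken as uncharacterized where the description of its best protein match holds the word hypothetical or uncharacterized, which is the case for 10733 of the 13953 unigenes in the deposited table. The 53 were chosen from these by their own expression in all 9 libraries, in CPM, the counts scaled to a total of 1000000 per library. Each of the 3 libraries at 36 °C had to lie above each of the other libraries, the mean at 36 °C had to be at least 5 CPM and at least 3 times the mean at 25 °C and the mean at 32 °C, and the mean at 32 °C had to be 0.67 to 1.5 times that at 25 °C. The differences between temperatures are therefore what selected the set, and for its members they are given as a description without a test.

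The libraries were made from mycelium of 1 strain, Zhongnong No.1, grown in the dark on potato dextrose agar at 25 °C for 9 days. From day 10 plates stayed at 25 °C as the control (CK) or were moved to 32 °C for moderate heat stress (MHT) or to 36 °C for severe heat stress (SHT). The mycelium was harvested on day 13, at the end of a continuous heat treatment. These day numbers are the study's, and the length of the treatment in hours cannot be counted from them. Each group has 3 libraries from separate plates, all inoculated from 1 initial plate, so the spread between libraries is that of cultures of a single strain. Whole mycelium was used, so a change in the share of 1 kind of hypha and a change in RNA per cell cannot be told apart.

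The total count was 3925786 to 5014053 in CK, 4865930 to 6180053 in MHT and 4764179 to 5917149 in SHT. Of the libraries, 2 stood apart from their groups. MHT replicate 3 lay nearest to SHT replicate 2, at a Euclidean distance of 57.7 over log2(CPM + 1) of the 13018 unigenes with a count in every library, while it was 66.9 and 71.3 from the other MHT libraries. SHT replicate 2 was in turn 62.2 and 63.6 from the other SHT libraries, which were 39.9 apart. Whether both libraries carry the label of their own treatment was not tested, and every MHT and SHT mean takes the labels as given. The choice of the set depends on both: leaving out MHT replicate 3 gives 75 unigenes that meet the rule, leaving out SHT replicate 2 gives 92 and leaving out both gives 116, of which 47, 49 and 44 are among the 53.

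A hypothetical protein is a product predicted from a genome sequence that has not been tied to an experiment or to a protein of known function, and such predictions make up a large part of mushroom genomes. Heat stress in fungi is best known for the chaperones that keep proteins folded, for trehalose, a sugar that protects proteins and membranes, and for changes in membrane lipids. *P. tuoliensis* is an oyster mushroom, a white-rot fungus that lives on wood and plant stems, and its close relatives *Pleurotus ostreatus*, *Pleurotus eryngii*, *Pleurotus pulmonarius* and *Pleurotus cornucopiae* supply most of the protein matches. A name such as BDN71DRAFT_1235396 is the locus of the matched gene in such a relative and says nothing of what the protein does.

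The members spanned a wide range of abundance. The mean in SHT was 6.47 to 1830.3 CPM with a median of 41.3, and 18 members reached 100 CPM, 25 lay between 10 and 100, and 10 lay below 10. The ratio of the SHT to the CK mean had a median of 4.14 over the members and that of SHT to MHT a median of 3.86. For all 13018 unigenes with a count in every library these medians were 1.21 and 1.09, so on the scale of column totals the typical unigene was itself higher in SHT. Scaled by TMM, a method that sets the typical unigene level between libraries, the members' medians were 3.50 and 3.55 and those of all unigenes 1.01 and 0.998.

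Between MHT and CK the members lay close together, as the rule asks. The MHT mean was above the CK mean in 37 of the 53 (69.8%), and in 60.8% of all unigenes tested. With TMM these shares were 54.7% and 49.8%. All MHT libraries were above all CK libraries in 3 members (5.66%), gene_6420, gene_7053 and gene_15768, and in 25.0% of all unigenes tested. With TMM scaling this held for 0 of the 53 members and for 18.4% of all unigenes. For gene_15768 the values by column totals were 4.21, 4.90 and 5.75 CPM in MHT and 3.82, 3.79 and 3.21 CPM in CK, a ratio of MHT to CK means of 1.37.

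**Figure D1:**
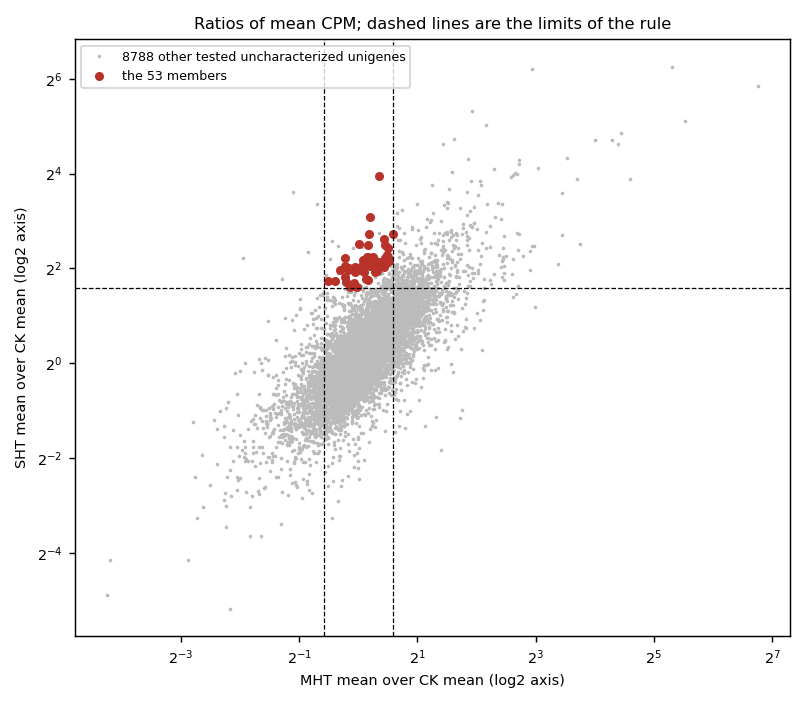
Ratio of the MHT to the CK mean (horizontal) against the ratio of the SHT to the CK mean (vertical), both of mean CPM on log2 axes, for uncharacterized unigenes with a count in every library and a SHT mean of at least 5 CPM, and for gene_4989. The 53 members (red, from 3.05 to 15.4 on the vertical axis) lie between the dashed limits of the rule, above the main cloud of the 8788 others (grey). Of the grey points, 522 are at 3 or higher on the vertical axis, and 458 of these lie right of the members, where MHT is more than 1.5 times CK.

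The rule was applied in steps. Of the 10733, 8868 had a SHT mean of at least 5 CPM, 587 of these were at least 3 times their CK mean, 116 were also at least 3 times their MHT mean, and 95 of these had no overlap with CK or MHT. The last limit, on the ratio of MHT to CK, took out 42, of which 38 were above 1.5 and 4 below 0.67. In edgeR's quasi-likelihood fit over all 13018 unigenes tested, with a call at an adjusted p under 0.05 and a log2 fold change beyond 1 in size, 51 of the 52 members tested were called higher in SHT&CK, where 10.8% of all unigenes were called higher, and 48 of 52 in SHT&MHT, where 2.79% were. The members without a call were gene_4928 in both contrasts and gene_24652, gene_24670 and gene_10267 in SHT&MHT. In MHT&CK none of the 52 was called in either direction (8.17% of all unigenes were), none had an unadjusted p under 0.05, and DESeq2 called none. In the other directions, 10.9% of all unigenes were called lower in SHT&CK and 2.87% in SHT&MHT, so that 21.7% and 5.65% were called in either direction, and 3.85% were called higher and 4.32% lower in MHT&CK. These contrasts selected the members, and nothing is read from the counts. The member left out of the fit was gene_4989, which had no count in CK replicate 1.

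Values just inside and just outside each limit of the rule are given in pairs. In gene_24652 the lowest SHT library was 1.03 times the highest CK or MHT library, and in gene_7126, just outside, this ratio was 0.924. The ratio of SHT to CK means was 3.05 in gene_17106 and 2.97 in gene_23362, the nearest unigene outside, and that of SHT to MHT was 3.02 in gene_4022 and 2.99 in gene_26625. The ratio of MHT to CK means was 1.49 in gene_5809 and 1.57 in gene_7287 at the upper limit, and 0.704 in gene_16092 and 0.614 in gene_16826 at the lower one. By SHT mean, gene_10267 was the lowest member at 6.47 CPM, and gene_3745 was outside at 4.94 CPM. A second unigene stood beside each of these. Inside were gene_26419 (1.07 times), gene_14807 (3.06 over CK), gene_17982 (3.02 over MHT), gene_11159 (1.43), gene_7735 (0.758) and gene_4690 (6.75 CPM). Outside were gene_16963 (0.873 times), gene_24276 (2.85 over CK), gene_14593 (2.99 over MHT), gene_7334 (1.58), gene_15857 (0.554) and gene_5644 (4.83 CPM).

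The most abundant member was gene_11158, matched to CCMSSC00406_0007501 of *P. cornucopiae*. It was at 264, 696 and 315 CPM in the CK libraries, 445, 483 and 833 CPM in MHT and 1668, 1091 and 2732 CPM in SHT. The mean in SHT was 4.30 times that in CK and 3.12 times that in MHT. The next unigene by ID, gene_11159, is matched to CCMSSC00406_0007494 of the same species and had 127, 255 and 126 CPM in CK, 174, 212 and 340.1 CPM in MHT and 663, 433 and 1179 CPM in SHT. The same libraries were highest for both of this pair: CK replicate 2, MHT replicate 3 and SHT replicate 3.

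In gene_3118, matched to CCMSSC00406_0004120, values were 116, 199 and 272 CPM in CK, 213, 240.2 and 376 CPM in MHT and 974, 442 and 1762 CPM in SHT. SHT replicate 2 stood only a little above the highest MHT library, while SHT replicate 3 was 3.99 times as high as SHT replicate 2. The fourth by abundance, gene_17106, is matched to PLEOSDRAFT_1062181 of *P. ostreatus* PC15 and was at 66.2, 181 and 139 CPM in CK, 107, 124 and 151 CPM in MHT and 382, 273 and 525 CPM in SHT. Summed over all 53, expression was 1250 to 2301 CPM in CK, 1685 to 2673 CPM in MHT and 4591 to 10194 CPM in SHT, and without the 3 most abundant the sums were 743 to 1151 CPM, 853 to 1124 CPM and 2624 to 4522 CPM.

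Some of the next members by abundance were more even among the SHT libraries. In gene_17196, matched to EYR38_008102 of *P. pulmonarius*, the values were 32.1, 57.6 and 46.3 CPM in CK, 35.9, 59.7 and 56.9 CPM in MHT and 211, 268 and 285 CPM in SHT. The lowest SHT library was 3.54 times the highest of the others, and the mean was 5.62 times that in CK and 5.02 times that in MHT. In gene_176, matched to PC9H_005715 of *P. ostreatus*, CK had 43.6, 56.0 and 39.9 CPM, MHT 58.7, 62.7 and 51.8 CPM and SHT 259.8, 138 and 179 CPM. In gene_24032, matched to EYR36_008158, they were 38.2, 39.1 and 38.9 CPM in CK, 60.8, 55.7 and 34.5 CPM in MHT and 208, 114 and 157 CPM in SHT. The CK libraries of this unigene were nearly equal, and MHT replicates 1 and 2 lay above all of them while MHT replicate 3 lay below.

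**Figure D2:**
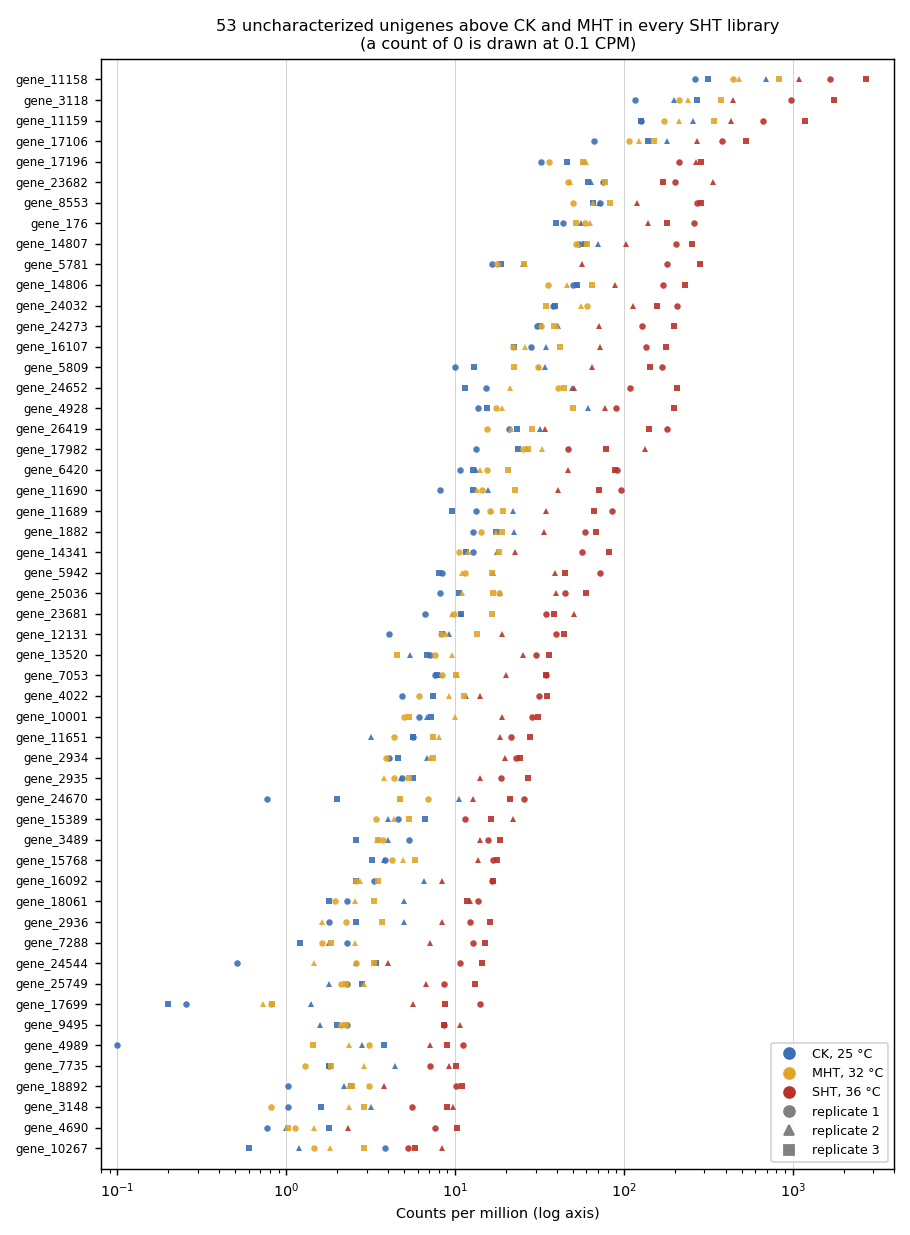
Expression of the 53 members in each of the 9 libraries, in CPM on a log axis, ordered by their mean in SHT. Colours mark the groups and symbols the replicates. SHT points (red) lie to the right of all CK (blue) and MHT (yellow) points in every row, as the rule requires, and in 43 rows the leftmost SHT point is replicate 2.

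The other members with a SHT mean of at least 100 CPM had more uneven SHT libraries. For gene_8553 (BDN71DRAFT_1428421 of *P. eryngii*) the libraries were at 72.1, 70.8 and 65.7 CPM in CK, 50.2, 66.0 and 82.2 CPM in MHT and 269.9, 119 and 285 CPM in SHT. For gene_5781 (CCMSSC00406_0007028) they were at 16.6, 25.3 and 18.8 CPM in CK, 17.8, 26.1 and 25.7 CPM in MHT and 180.3, 56.5 and 281 CPM in SHT, so that the SHT libraries stood clear of the others by 2.16 times although they differed among themselves by 4.97 times. In gene_16107 (CCMSSC00406_0009340) the means were 28.5 ± 6.13 CPM in CK, 29.9 ± 10.4 CPM in MHT and 128 ± 52.7 CPM in SHT (mean ± SD, n = 3 here and below). In gene_24273 (PLEOSDRAFT_1062181) they were 34.5 ± 5.58 CPM in CK, 37.0 ± 4.06 CPM in MHT and 132 ± 62.8 CPM in SHT. The adjacent gene_14806 and gene_14807, matched to loci of different species, had 51.7 ± 1.73 and 61.1 ± 7.96 CPM in CK, 48.8 ± 15 and 55.5 ± 4.63 CPM in MHT, and 163 ± 70.8 and 187 ± 76.5 CPM in SHT. In both SHT replicate 3 was the highest library and SHT replicate 2 the lowest of its group.

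In some members of this abundance 1 library moved the ratio of the means. In gene_4928 (PC9H_001446) CK had 13.8, 61.0 and 15.4 CPM, MHT 17.5, 19.0 and 49.9 CPM and SHT 90.2, 76.8 and 199 CPM. CK replicate 2 and MHT replicate 3 came close to the lower SHT libraries, and the ratio of SHT to CK means, 4.06, is 8.36 without CK replicate 2, while that of SHT to MHT, 4.24, is 6.69 without MHT replicate 3. In gene_24652 (PLEOSDRAFT_1051406, a partial protein) CK had 15.3, 49.1 and 11.4 CPM, MHT 40.6, 21.0 and 44.4 CPM and SHT 109, 50.4 and 207 CPM. Its ratio of SHT to CK means of 4.84 becomes 9.16 without CK replicate 2 and 3.16 without SHT replicate 3, and its ratio to MHT of 3.46 becomes 2.26 without SHT replicate 3. In gene_5809 (EYR38_008221) CK had 9.93, 33.9 and 13.0 CPM, MHT 30.9, 31.5 and 22.4 CPM and SHT 168, 64.6 and 143 CPM, and the ratio to CK of 6.62 is 10.9 without CK replicate 2. The ratios of gene_26419 did not move by as much. This unigene (CCMSSC00406_0006795) had 20.9, 31.9 and 23.2 CPM in CK, 15.4, 21.6 and 28.4 CPM in MHT and 179, 34.0 and 141 CPM in SHT. Its SHT replicate 2 was barely above CK replicate 2, and SHT replicate 1 was 5.26 times SHT replicate 2, the widest spread of the set.

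Among the 25 members with SHT means between 10 and 100 CPM, gene_6420 (CCMSSC00406_0007913) was at 10.7, 13.4 and 12.8 CPM in CK, 15.4, 14.1 and 20.6 CPM in MHT and 91.3, 46.6 and 88.6 CPM in SHT, 6.14 times CK and 4.52 times MHT by the means. It stands next in ID to gene_6421, a carbohydrate esterase of family 1, an enzyme class that removes ester-linked side groups from plant polysaccharides, which was at 16.8, 16.4 and 12.2 CPM in CK, 12.6, 10.7 and 16.0 CPM in MHT and 88.7, 31.5 and 68.3 CPM in SHT. In both, SHT replicate 1 was highest and SHT replicate 2 lowest. By the means, gene_1882 was at 17.5 ± 4.80 CPM in CK, 16.9 ± 2.41 CPM in MHT and 53.8 ± 18.1 CPM in SHT. In gene_14341 these were 14.0 ± 3.27 CPM in CK, 13.5 ± 4.02 CPM in MHT and 53.6 ± 29.7 CPM in SHT. In both the SD in CPM was larger in SHT than in CK and MHT, as was the mean.

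Further members of this range are given by their means. In gene_5942 the means were 11.1 ± 4.94 CPM in CK, 13.1 ± 3.11 CPM in MHT and 52.1 ± 17.9 CPM in SHT, in gene_25036 12.4 ± 5.32 CPM in CK, 15.4 ± 3.83 CPM in MHT and 48.0 ± 10.2 CPM in SHT, and in gene_12131 7.22 ± 2.75 CPM in CK, 10.2 ± 2.90 CPM in MHT and 34.2 ± 13.4 CPM in SHT. In gene_4022 they were 7.94 ± 3.39 CPM in CK, 8.90 ± 2.59 CPM in MHT and 26.9 ± 11.3 CPM in SHT and in gene_10001 6.70 ± 0.554 CPM in CK, 6.78 ± 2.77 CPM in MHT and 26.1 ± 6.40 CPM in SHT. Of these gene_10001 had almost equal means in MHT and CK. Below them, gene_11651 was at 4.80 ± 1.39 CPM in CK, 6.58 ± 1.94 CPM in MHT and 22.5 ± 4.66 CPM in SHT. In gene_3489 (PC9H_010823) the libraries were at 5.35, 3.99 and 2.60 CPM in CK, 3.72, 3.44 and 3.49 CPM in MHT and 15.7, 14.1 and 18.5 CPM in SHT, with the MHT libraries nearly equal and the SHT libraries within 1.31 times of each other.

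The largest ratios were found in members of both low and high abundance. In gene_17699 (BDN71DRAFT_690673 of *P. eryngii*) CK had 0.255, 1.4 and 0.200 CPM, MHT 0.809, 0.725 and 0.822 CPM and SHT 14.0, 5.67 and 8.74 CPM, and the SHT mean was 15.4 times the CK mean and 12.1 times the MHT mean. The CK level rests on 9 counts, against 154 in SHT, and on the pooled counts the ratio is 15.2 with an exact 95% interval of 7.79 to 33.8, which covers counting error only. Without CK replicate 2 the ratio of means is 41.7, on 2 counts in CK (pooled ratio 43.7, interval 11.9 to 364). The unigene was selected by this ratio and named for its size. Neither interval allows for that choice or for the spread between libraries, and neither is a test. Next came gene_5781 at 8.52 times CK and 7.43 times MHT, and gene_7288 (PC9H_007263) at 6.63 and 5.84 times. In gene_7288 the libraries were at 2.29, 1.79 and 1.20 CPM in CK, 1.62, 2.54 and 1.85 CPM in MHT and 12.8, 7.14 and 15.1 CPM in SHT. The others among the 10 largest by the ratio to the larger of the CK and MHT means were gene_4690 (5.68 times CK and 5.61 times MHT), gene_17196, gene_26419, gene_6420, gene_5809, gene_16107 and gene_9495.

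In 14 members at least 1 CK library held fewer than 10 counts. In gene_4989 (PLEOSDRAFT_1030599, a partial protein) CK had 0, 2.79 and 3.81 CPM, MHT 3.07, 2.36 and 1.44 CPM and SHT 11.2, 7.14 and 8.94 CPM, and the ratio of SHT to CK means of 4.13 becomes 6.5 without CK replicate 3. In gene_10267 CK had 3.82, 1.20 and 0.601 CPM, MHT 1.46, 1.81 and 2.88 CPM and SHT 5.24, 8.4 and 5.76 CPM, and the ratio of 3.45 becomes 7.19 without CK replicate 1. In gene_4690 SHT had 7.61, 2.31 and 10.3 CPM, against 1.13, 1.45 and 1.03 CPM in MHT and 0.764, 0.997 and 1.80 CPM in CK. The members under 10 CPM in SHT also include gene_17699, described above, and gene_25749 and gene_9495, described below. The other 4, gene_24544, gene_18892, gene_7735 and gene_3148, had SHT means of 9.71 ± 5.32, 8.28 ± 3.92, 8.82 ± 1.56 and 8.06 ± 2.18 CPM, against MHT means of 2.44 ± 0.928, 2.63 ± 0.387, 2.02 ± 0.816 and 2.01 ± 1.08 CPM and CK means of 2.17 ± 1.49, 1.87 ± 0.746, 2.66 ± 1.5 and 1.94 ± 1.12 CPM.

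The SHT libraries ranked alike in most members. SHT replicate 2 was the lowest of the SHT libraries in 43 of the 53 (81.1%) and SHT replicate 3 the highest in 33 (62.3%), while of the 11738 unigenes with a SHT mean of at least 5 CPM these shares were 41.3% and 28.1%. Of the 15 unigenes with an informative description that met the same expression limits, given below, they were 93.3% and 86.7%. Over the members, the ratio of the highest to the lowest SHT library had a median of 1.99. It was smallest in gene_18061 (EYR38_007660), at 2.29, 4.99 and 1.80 CPM in CK, 1.94, 2.54 and 3.29 CPM in MHT and 13.7, 12.2 and 11.7 CPM in SHT, a spread of 1.17 times. Next were gene_2934 (1.23 times), gene_9495 (1.3 times), gene_15768 (1.30 times) and gene_3489. In gene_9495 (EYR40_010266) the libraries were at 2.29, 1.60 and 2.0 CPM in CK, 2.10, 2.18 and 2.26 CPM in MHT and 8.62, 10.7 and 8.54 CPM in SHT, nearly flat below 36 °C and nearly flat at it. The widest spreads were in gene_26419 and gene_5781, followed by gene_4690, gene_24652 and gene_3118.

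The other groups had a leading library as well. CK replicate 2 was the highest CK library in 33 members (62.3%, against 41.6% of the 11738 unigenes) and MHT replicate 3 the highest MHT library in 33 (62.3%, against 47.5%), and 14 members had both together with SHT replicate 3. In the 15 informative unigenes that met the same limits, each of these libraries was the highest of its group in 80%, for CK replicate 2 and for MHT replicate 3. Over all members, the median deviation from the group mean of log2(CPM + 1) was 0.33 in CK replicate 2, 0.20 in MHT replicate 3, -0.53 in SHT replicate 2 and 0.30 in SHT replicate 3, while over all tested unigenes it was within 0.06 of 0 in each library. The part of these libraries in the choice of the set was not tested beyond leaving each out.

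A group of 7 members ran the other way, with SHT replicate 2 the highest: gene_23682, gene_17982, gene_23681, gene_15389, gene_9495, gene_3148 and gene_10267. In gene_17982 (EYR40_007969) CK had 13.2, 26.7 and 23.4 CPM, MHT 25.4, 32.6 and 27.1 CPM and SHT 46.5, 133 and 78.3 CPM. SHT replicate 1, whose median deviation over all members was 0.15, was the lowest SHT library here. In gene_15389 (PLEOSDRAFT_1097392) the libraries were at 4.59, 3.99 and 6.61 CPM in CK, 3.40, 4.35 and 5.34 CPM in MHT and 11.5, 22.0 and 16.3 CPM in SHT. Their order in SHT was the same as in gene_17982, with replicate 1 lowest and replicate 2 highest.

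**Figure D3:**
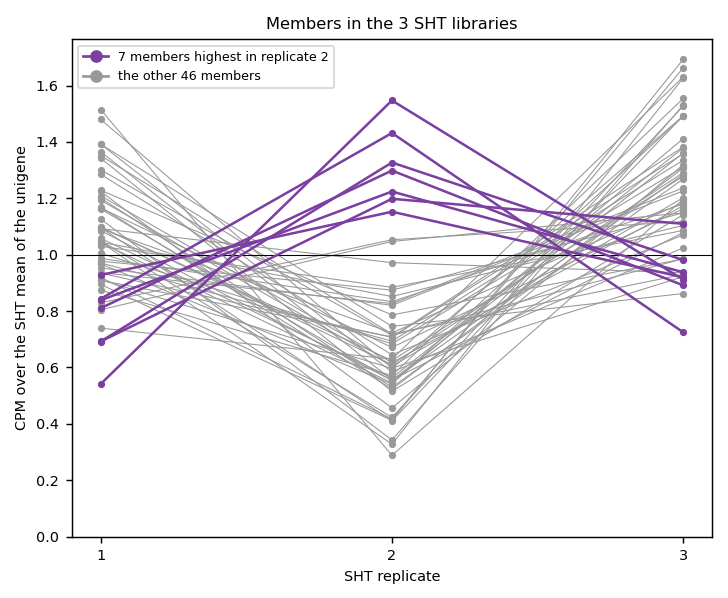
Expression of each member in the 3 SHT libraries relative to its own mean in SHT (vertical axis, CPM over the mean CPM, from 0). Each line joins the values of 1 unigene and the replicates have no order. Most lines (grey, 46 members) dip at replicate 2, while 7 (purple) peak there.

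Several members share a protein match. The 53 have 46 different matches, and 5 of these are held by more than 1 member, 12 members in all. PC9H_010996 of *P. ostreatus* is the match of 4: gene_2934, gene_2935 and gene_2936, which are consecutive by ID, and gene_25749. They were at 5.15 ± 1.43, 5.08 ± 0.460, 3.12 ± 1.66 and 2.30 ± 0.505 CPM in CK, 6.12 ± 1.94, 4.51 ± 0.777, 2.53 ± 1.06 and 2.42 ± 0.422 CPM in MHT, and 22.3 ± 2.33, 19.9 ± 6.58, 12.3 ± 3.85 and 9.48 ± 3.28 CPM in SHT. Their ratios of SHT to CK means were close, at 4.33, 3.92, 3.93 and 4.13, and in all 4 SHT replicate 3 was highest and SHT replicate 2 lowest. Over all 53 members the median of this ratio was 4.14, and 31 members (58.5%) had the same order of SHT libraries. Unigenes of 1 match can be pieces or copies of 1 gene between which reads are split, so their values are uncertain as separate genes. The last unigene with this match, gene_25748, was at 0.255, 0 and 0 CPM in CK, 0.324, 0 and 1.03 CPM in MHT and 2.37, 0.210 and 1.39 CPM in SHT and is not a member.

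The other shared matches are pairs. BDN71DRAFT_1451619 of *P. eryngii* is the match of gene_11689 and gene_11690, which lie next to each other by ID. The values of gene_11689 were 13.2, 22.1 and 9.62 CPM in CK, 16.2, 16.3 and 19.3 CPM in MHT and 84.5, 34.4 and 66.8 CPM in SHT. Those of gene_11690 were 8.15, 15.8 and 12.8 CPM in CK, 14.4, 13.4 and 22.6 CPM in MHT and 96.7, 40.5 and 71.1 CPM in SHT. SHT replicate 1 was the highest library of both, unlike in most members. CCMSSC00406_0008260 is shared by gene_13520, at 6.44 ± 0.930 CPM in CK, 7.25 ± 2.56 CPM in MHT and 30.5 ± 5.29 CPM in SHT, and gene_15768, at 3.61 ± 0.347 CPM in CK, 4.95 ± 0.775 CPM in MHT and 16.0 ± 2.11 CPM in SHT. CCMSSC00406_0009352 is shared by gene_24670 and gene_16092. In gene_24670 CK had 0.764, 10.6 and 2.0 CPM, MHT 6.96, 4.71 and 4.73 CPM and SHT 25.5, 12.8 and 21.3 CPM, so the CK mean rests on replicate 2 and the ratio of SHT to CK means, 4.47, is 14.4 without it. In gene_16092 CK had 3.31, 6.58 and 2.60 CPM, MHT 2.59, 2.72 and 3.49 CPM and SHT 16.6, 8.4 and 16.7 CPM, again with CK replicate 2 the highest. PLEOSDRAFT_1062181 is shared by gene_17106 and gene_24273, described above, whose CK means were 129 and 34.5 CPM.

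A shared match did not go with a shared pattern in every case. Of all unigenes with the match of a member, 10 are not members. In gene_7052, matched like its ID neighbour gene_7053 to BDN71DRAFT_1500819, CK had 17.6, 16.4 and 14.2 CPM, MHT 10.7, 12.7 and 9.04 CPM and SHT 12.0, 14.5 and 13.7 CPM, whereas gene_7053 had 7.64, 8.18 and 7.81 CPM in CK, 8.41, 10.3 and 10.1 CPM in MHT and 34.6, 19.9 and 34.6 CPM in SHT. The SHT libraries of gene_7052 lay within or below the range of CK, and those of gene_7053 above it. With the match of gene_3118, gene_3013 was at 485, 838 and 707 CPM in CK, 631, 653 and 942 CPM in MHT and 1416, 1028 and 2085 CPM in SHT, and gene_3130 at 16.8, 21.5 and 17.0 CPM in CK, 18.6, 15.2 and 17.3 CPM in MHT and 11.8, 21.2 and 16.9 CPM in SHT. The SHT libraries of gene_3013 were above all others, at 2.23 times the CK mean, and the groups of gene_3130 overlapped. With the match of gene_24652, gene_11133 was at 13.0, 70.6 and 20.2 CPM in CK, 59.5, 35.2 and 74.4 CPM in MHT and 214, 83.5 and 334 CPM in SHT, and fell outside the rule only by its ratio of MHT to CK means of 1.63. So did gene_7287, the neighbour and match partner of gene_7288, at 3.06, 2.39 and 1.80 CPM in CK, 3.88, 2.54 and 4.93 CPM in MHT and 15.7, 18.7 and 19.9 CPM in SHT.

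By ID, 11 members formed 5 runs of consecutive numbers: the 3 with the match PC9H_010996, and the pairs gene_11158 with gene_11159, gene_11689 with gene_11690, gene_14806 with gene_14807 and gene_23681 with gene_23682. The files give no coordinates, so adjacent numbers show only that unigenes follow each other in the authors' numbering. The last pair belongs to a stretch of 4 unigenes that were all higher in SHT. Among them gene_23680 and gene_23681 share the match BDN71DRAFT_1235396, so they can be pieces or copies of 1 gene. In gene_23680 CK had 290.1, 307 and 221 CPM, MHT 276, 235 and 559 CPM and SHT 719, 1086 and 726 CPM. In gene_23681 the values were 6.62, 10.8 and 10.8 CPM in CK, 9.87, 9.61 and 16.4 CPM in MHT and 34.6, 50.6 and 38.7 CPM in SHT, and in gene_23682 they were 75.1, 64.0 and 61.5 CPM in CK, 46.6, 47.7 and 77.3 CPM in MHT and 199.6, 339 and 171 CPM in SHT. The fourth, gene_23683, was at 4.08, 4.59 and 4.41 CPM in CK, 8.25, 7.61 and 15.4 CPM in MHT and 40.4, 42.0 and 34.6 CPM in SHT. In all 4 MHT replicate 3 was the highest MHT library and SHT replicate 2 the highest SHT library. The outer pair are not members, gene_23680 because its ratio of SHT to MHT means was 2.37 and gene_23683 because its MHT mean was 2.39 times that in CK, but in edgeR's quasi-likelihood test both passed in SHT&CK, gene_23680 at a log2 fold change of 1.36 (adjusted p = 0.00453) and gene_23683 at 2.89 (adjusted p = 3.84e-05). In SHT&MHT gene_23683 passed at 1.79 (adjusted p = 0.00254, edgeR), and gene_23680, at 1.12 (adjusted p = 0.0377), did not pass without any 1 library other than MHT replicate 3.

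**Figure D4:**
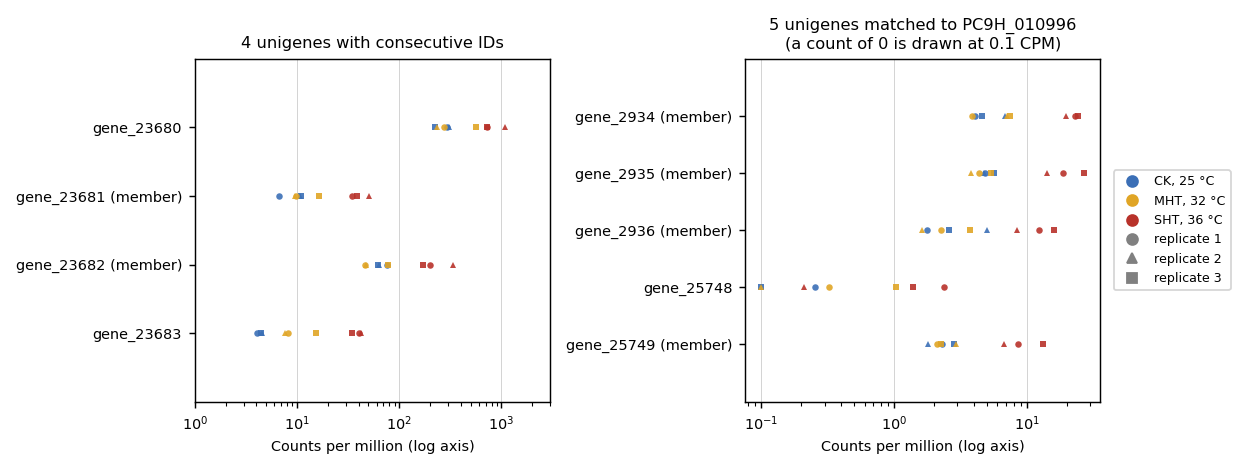
Expression in each library, in CPM on a log axis, of the 4 unigenes gene_23680 to gene_23683 (left) and of the 5 unigenes matched to PC9H_010996 (right), with members marked. Colours are groups and symbols replicates. On the left SHT replicate 2 (red triangles) is the highest library in each row, and on the right it is the lowest SHT library in each row. On the left gene_23680 and gene_23681 share a protein match.

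The unigenes next to members were examined as a set that the rule did not choose directly. Beside the 53 members by 1 ID number stand 70 unigenes that are not members, 63 of them tested. Of these 18 rose in SHT&CK (28.6%, against 10.8% of all unigenes) and 2 fell, and 9 rose in SHT&MHT (14.3%, against 2.79%). Of the 18, 2 have the same match as their member, and gene_6421 itself meets the expression limits of the rule. The median log2 fold change of the 63 was 0.36 in SHT&CK, against 0.01 over all unigenes. No test of these shares was run. They come from the same libraries that selected the members, and adjacent unigenes can be parts of 1 transcript.

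Most of the neighbours are uncharacterized too, and those named here were chosen after their values were seen. The largest difference in SHT&CK was in gene_16106, next to gene_16107, which rose in SHT&CK by a log2 fold change of 4.37 (adjusted p = 0.0115, edgeR) and was at 343, 97.8 and 419 CPM in SHT, against 1.27, 30.3 and 3.21 CPM in CK, with 17.5, 23.8 and 52.2 CPM in MHT. In gene_24653, next to gene_24652, the log2 fold change was 3.72 (adjusted p = 0.00208, edgeR), and it was at 365, 136 and 545 CPM in SHT, against 12.5, 42.9 and 11.2 CPM in CK, with 118, 85.8 and 202 CPM in MHT. The ratios of SHT to CK means of these unigenes, 24.7 and 15.7, are 128 and 29.4 without CK replicate 2, and that of SHT to MHT in gene_16106, 9.20, is 13.9 without MHT replicate 3. Their MHT means were 2.69 and 6.10 times their CK means, and neither was called in SHT&MHT (adjusted p = 0.077 and 0.187, edgeR). In gene_24653 SHT replicate 2 lay below MHT replicate 3. For gene_4929, next to gene_4928, means were 327 ± 68.1 CPM in CK, 1117 ± 365 CPM in MHT and 2355 ± 455 CPM in SHT. It rose in SHT&CK by a log2 fold change of 2.59 (adjusted p = 6.67e-05, edgeR).

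Of the 15 tested neighbours with an informative description, 2 rose in SHT&CK (13.3%, near the 10.8% of all unigenes). They were gene_6421, by a log2 fold change of 1.79 (adjusted p = 0.00158 in edgeR), and gene_24545, by 1.77 (adjusted p = 0.00864). The product of gene_24545 is a family 47 glycoside hydrolase, one of the mannosidases that trim the sugar chains of secreted proteins, and stands beside gene_24544. It was at 3.31, 2.39 and 3.0 CPM in CK, 2.75, 4.71 and 6.78 CPM in MHT and 11.8, 5.67 and 17.9 CPM in SHT. An alpha/beta-hydrolase, gene_5782, stands beside gene_5781 and fell in SHT&CK by 1.32 on the log2 scale (adjusted p = 0.00393, edgeR), to 125 ± 13.7 CPM in SHT, against 256 ± 87.4 CPM in CK. Its mean in MHT was 109.7 ± 35.0 CPM. Next to gene_15389, a glycerol kinase, gene_15390, which phosphorylates glycerol, was at 6.22 ± 2.04 CPM in CK, 3.41 ± 0.837 CPM in MHT and 13.6 ± 1.78 CPM in SHT. In SHT&CK it missed the limit on size (log2 fold change 0.85, adjusted p = 0.0339, edgeR), and it rose in SHT&MHT by 1.85 (adjusted p = 0.00493). A xylanase, gene_18060, and a kinase-like protein, gene_24033, missed the thresholds in SHT&CK, at 0.74 and 0.64 on the log2 scale.

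Unigenes with an informative description met the same expression limits too. They were 15 of 3220 (0.466%), beside the 53 members of 10733 (0.494%). Like the members they were selected by their pattern and carry no test, and the lists of words below hold 0 to 2 of them each, so no kind of gene is singled out. Of the 15, 4 (26.7%, against 16.9% of all informative unigenes) have their best match in the willow *Salix suchowensis* in the deposited descriptions: gene_15081, gene_21157, gene_16414 and gene_1672. The most abundant was gene_15081, an aldehyde dehydrogenase, which oxidises aldehydes to acids, at 168, 312 and 288 CPM in CK, 184, 240.4 and 307 CPM in MHT and 854, 577 and 1116 CPM in SHT. A fructose-bisphosphate aldolase of glycolysis, gene_315, had 128, 252 and 162 CPM in CK, 115, 146 and 213 CPM in MHT and 666, 367 and 973 CPM in SHT. In both SHT replicate 2 was the lowest SHT library, as it was in 14 of the 15.

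Of the others, 2 are described as NAD(P)-binding proteins, which bind the cofactors of oxidation and reduction. The first, gene_21283, had the largest ratio of the 15 and was at 28.5 ± 20.5 CPM in CK, 35.9 ± 9.87 CPM in MHT and 323 ± 211 CPM in SHT, 11.3 times CK (19.3 without CK replicate 2) and 9.00 times MHT. The second, gene_6524, was at 37.6 ± 25.7 CPM in CK, 48.5 ± 19.8 CPM in MHT and 156 ± 33.7 CPM in SHT, with a ratio of SHT to CK means of 4.14 (6.79 without CK replicate 2). A cytochrome P450, gene_2803, of the monooxygenases that act on lipids and small molecules, had 13.8, 111 and 24.4 CPM in CK, 27.0, 36.4 and 115 CPM in MHT and 245, 120.5 and 430.3 CPM in SHT, and its ratio of SHT to CK means of 5.33 is 13.9 without CK replicate 2, while that to MHT of 4.46 is 8.35 without MHT replicate 3. Carnitine O-acetyltransferase, gene_12665, which moves acetyl units between compartments, was at 12.8 ± 6.43 CPM in CK, 14.8 ± 3.41 CPM in MHT and 68.8 ± 41.0 CPM in SHT.

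Transport and polysaccharide breakdown had 2 unigenes each, of the 125 and 168 informative unigenes that lists of words in the descriptions assign to transporters and carbohydrate-active enzymes. The hexose transporter gene_16414, which takes up sugars, was at 7.65 times its CK mean and 5.49 times its MHT mean in SHT, and the MFS transporter gene_21157 at 5.07 and 4.89 times. A polysaccharide lyase of family 14, gene_13958, was at 5.02 ± 0.835 CPM in CK, 6.34 ± 2.39 CPM in MHT and 19.3 ± 4.77 CPM in SHT, and the esterase gene_6421 is given above. A seven-hairpin glycosidase, gene_16025, of the fold of the family 47 mannosidases, was at 5.33 ± 1.21 CPM in CK, 5.23 ± 3.51 CPM in MHT and 28.2 ± 11 CPM in SHT. Of the 31 unigenes in the chaperone list 1 met the limits, the GroES-like gene_23695, whose name also covers a fold common in dehydrogenases, at 11.3 ± 2.58 CPM in CK, 15.8 ± 8.26 CPM in MHT and 67 ± 38.0 CPM in SHT. The rest were gene_26632, described by an actin-like ATPase domain, at 134, 57.1 and 151 CPM in SHT, a molybdenum cofactor synthesis protein, gene_1672, at 17.6 ± 7.38 CPM, and a UPF0014 protein, gene_3754, at 9.78 ± 1.08 CPM, with ratios of SHT to CK means of 4.17, 3.28 and 4.28. None of the unigenes in the word lists for kinases (160), transcription factors (65), proteases (94) or RNA and translation (155) met the limits. Nor did any in the lists for DNA replication and repair (63), ubiquitin (65), retroelements (14) or surface proteins (6). Of all informative unigenes 0.466% met them. A list takes every description that holds its words, so it can include genes of other kinds.

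**Figure D5:**
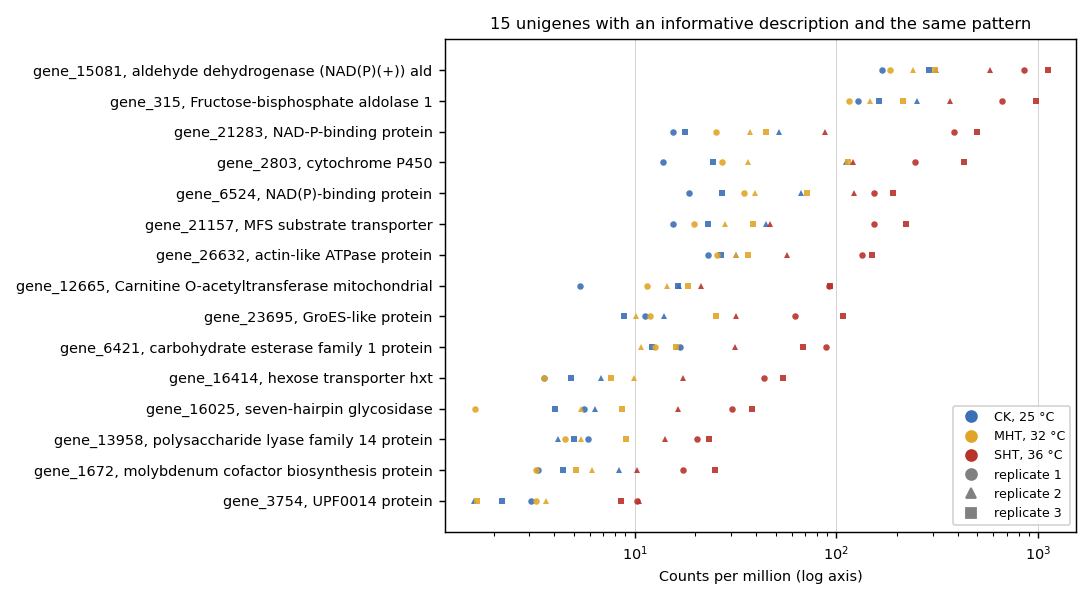
Expression in each library, in CPM on a log axis, of the 15 unigenes with an informative description that meet the same expression limits, ordered by their mean in SHT. Colours are groups and symbols replicates. All SHT points (red) lie right of the CK (blue) and MHT (yellow) points, and replicate 2 is the lowest SHT library in 14 of the 15 rows.

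The descriptions of the members hold no domain or function. The word hypothetical is in 42 and uncharacterized in 11, and 2 name a partial protein. All 53 matches are to oyster mushrooms, 13 to *P. cornucopiae*, 14 to *P. eryngii*, 11 to *P. ostreatus*, 9 to its strain PC15 and 6 to *P. pulmonarius*. As shares of the set these are 24.5%, 26.4%, 20.8%, 17.0% and 11.3%, against 30.2%, 26.4%, 17.6%, 13.2% and 10.2% of the 10733 uncharacterized unigenes, of which 254 are matched outside the genus.

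Which members meet the rule depends on how the libraries are scaled and on single libraries. With TMM or with the size factors of DESeq2, 34 unigenes meet it, 31 of them members, and 22 members are lost, among them gene_11158, gene_11159 and gene_17106. A total of 14 members met it under both of these scalings and with each of the 9 libraries left out in turn: gene_17196, gene_5781, gene_16107, gene_6420, gene_23681, gene_13520, gene_10001, gene_2934, gene_2935, gene_3489, gene_18061, gene_7288, gene_25749 and gene_9495. Their SHT means were 9.29 to 255 CPM.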

How the data were processed

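Expression in mycelium of 1 strain was measured by RNA-seq in 9 libraries, 3 at each temperature. Per the labels and the study's methods, the authors trimmed reads with fastp, used Bowtie2 to remove ribosomal reads and HISAT2 to align the others to the genome of strain JKBL130LB, then assembled unigenes with StringTie and described them by BLASTX. Neither tool versions nor strandedness of the counting is stated in the sources read. The table as deposited holds raw counts per unigene, made by the authors without normalization, and was scaled here to CPM by column totals. All columns were used.

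The members and the lists of words were chosen with earlier results of these data known. Counts of the 13018 unigenes with a count in every library (935 of 13953 were left out) were fitted with edgeR 4.0.16 in R 4.3.3 (TMM, quasi-likelihood test, 3 groups in 1 fit, Benjamini-Hochberg adjustment), and a call needed an adjusted p under 0.05 and a log2 fold change beyond 1 in size. The test was checked on simulated counts. Named unigenes were the members of highest SHT mean, of largest ratio and of smallest SHT spread, those in runs of IDs, of shared match, left out of the fit or just beside a limit of the rule, the informative unigenes of the same pattern and the informative ID neighbours of largest difference. Others were named after their values were seen. Alternatives were DESeq2 1.42.0, other scalings, filters and limits, a replicate block, 2 groups at a time and each library left out. No sequence was used.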

Additional observations from a re-analysis of the deposited data

How the results depend on the processing

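The number of unigenes that meet the rule was 34 with TMM or DESeq2 size factors (31 of them members), 205 with a fold of at least 2 and 16 with a fold of at least 4, and it was 38 to 92 when each library was left out (38 without SHT replicate 3, 92 without SHT replicate 2). The informative unigenes of the same pattern were 9, 9, 51 and 8 under these settings and 9 to 25 with a library left out. Without both MHT replicate 3 and SHT replicate 2, an alternative added after the data were seen, 116 uncharacterized and 36 informative unigenes met the rule and 14 neighbours were called higher in SHT&MHT. With each library left out, members called higher in SHT&MHT were 30 to 50 (30 without MHT replicate 1, 32 without SHT replicate 3), members called in MHT&CK 0 to 1 (gene_24670 without CK replicate 2), and neighbours called higher in SHT&MHT 4 to 14 (4 without SHT replicate 3, 14 without MHT replicate 3). With the replicate number as a block, 49 members were called higher in SHT&CK, 46 in SHT&MHT and 0 in MHT&CK. Same-numbered libraries deviated together with correlations of -0.254 to 0.474, so the numbers were not taken as pairs. DESeq2 called 52 members higher in SHT&CK and 49 in SHT&MHT. The rule sets limits on all 3 contrasts for the members, so nothing is read from these counts of calls. The cause of these shifts was not tested. Of the values of single unigenes under other settings, 1791 kept their size or call, 58 moved by more than 1 SD, 11 newly passed the test and 10 no longer passed, all of the last in SHT&MHT for gene_23680 with log2 fold changes of 0.90 to 1.22. In 14 members a CK library holds fewer than 10 counts. With TMM, an alternative added later, no member had all MHT libraries above all CK libraries.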
